A study of Mus musculus with 19 samples.

Results

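Hematopoietic progenitors of mouse bone marrow were set against myeloid cells of the same tissue and age. The progenitors were LK cells, a marrow fraction negative for lineage markers and positive for Kit, the receptor for stem cell factor. The myeloid cells were sorted for CD11b, the integrin alpha M that Itgam encodes and that neutrophils, monocytes and macrophages carry on their surface. CD11b names this sort and not a stage of maturity, and in the main fit mitotic genes were not called in either direction (below). Both groups came from wild-type (WT) animals at 18 months and held 3 libraries each, so that 6 of the 19 libraries of the series entered the comparison. The remaining libraries came from younger CD11b cells and from animals labelled MT, which the series title ties to a mutant Asxl1. LK and CD11b libraries of MT animals at 18 months, 3 and 3, served as the same contrast in libraries that are not shared. The labels name no strain, sex, allele or batch. They do not say that replicates were separate animals, so p-values measure only the spread between these libraries, which may be technical. Features were the genes and transposable element (TE) subfamilies listed in both cell sets. These were 14420 genes and 1005 subfamilies, of which 13662 genes and 857 subfamilies passed a filter on low counts and were tested.

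Blood cells arise in the marrow from stem cells that give rise to progenitors with ever fewer fates. A neutrophil first fills primary (azurophil) granules with proteins such as myeloperoxidase. It makes secondary and tertiary granule proteins such as lactoferrin later, when the cells stop dividing, and receptors and S100 proteins last. Red cell precursors switch on GATA1 and KLF1 targets instead, and megakaryocyte precursors share many of those factors. TE subfamilies are sets of related repeat copies scattered over the genome. They include endogenous retroviruses with long terminal repeats (LTR), the long interspersed L1 elements (LINE), short interspersed B1 and B2 elements (SINE) and DNA transposons, and they are often read as parts of other transcripts.

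Promoter sequences of genes at the far ends of the comparison are shown first, because these genes carry the largest differences between the cell types. Each sequence runs from 250 bases before to 50 bases after the annotated start and comes from RefSeq on GRCm38.p6. Ltf (lactoferrin, an iron-binding secondary granule protein) and Ceacam10 (a member of the CEACAM family) had the largest fold change toward CD11b cells among secondary granule genes with an entry. Klf1 (an erythroid zinc finger factor) and Add2 (beta adducin of the red cell membrane skeleton) had the largest toward LK cells among erythroid genes with an entry. Car1 and Cldn13 had no entry used here. Rhd (a red cell membrane protein) and Cdc6 (which loads the replicative helicase) were added after the values were seen, because their windows hold a motif. Capitals mark motif matches and the rest is in lower case. All 6 genes lie on the plus strand.
Ceacam10 (chr7:24776917-24777216): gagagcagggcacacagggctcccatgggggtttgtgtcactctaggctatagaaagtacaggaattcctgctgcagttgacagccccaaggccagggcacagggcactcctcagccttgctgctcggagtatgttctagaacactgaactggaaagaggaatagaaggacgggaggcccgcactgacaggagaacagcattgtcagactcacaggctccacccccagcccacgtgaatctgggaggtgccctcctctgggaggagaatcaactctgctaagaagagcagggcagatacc
Ltf (chr9:111019042-111019341): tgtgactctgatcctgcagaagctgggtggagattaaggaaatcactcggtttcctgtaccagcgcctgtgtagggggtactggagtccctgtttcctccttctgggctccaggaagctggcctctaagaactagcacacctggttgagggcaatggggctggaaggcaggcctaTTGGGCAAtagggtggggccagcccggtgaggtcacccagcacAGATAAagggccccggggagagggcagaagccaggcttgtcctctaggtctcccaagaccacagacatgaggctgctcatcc
Klf1 (chr8:84901732-84902031): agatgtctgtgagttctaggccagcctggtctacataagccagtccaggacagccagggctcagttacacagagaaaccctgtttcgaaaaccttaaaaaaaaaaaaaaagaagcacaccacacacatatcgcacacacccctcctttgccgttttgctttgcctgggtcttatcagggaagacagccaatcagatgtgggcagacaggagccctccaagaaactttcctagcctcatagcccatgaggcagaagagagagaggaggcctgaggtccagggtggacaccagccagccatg
Add2 (chr6:86028431-86028730): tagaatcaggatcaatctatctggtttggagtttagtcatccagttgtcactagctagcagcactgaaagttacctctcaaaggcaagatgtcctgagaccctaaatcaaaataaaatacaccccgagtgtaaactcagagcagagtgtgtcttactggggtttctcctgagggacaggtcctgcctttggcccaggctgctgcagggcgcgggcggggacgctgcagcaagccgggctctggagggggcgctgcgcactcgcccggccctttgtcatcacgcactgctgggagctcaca
Rhd (chr4:134864286-134864585): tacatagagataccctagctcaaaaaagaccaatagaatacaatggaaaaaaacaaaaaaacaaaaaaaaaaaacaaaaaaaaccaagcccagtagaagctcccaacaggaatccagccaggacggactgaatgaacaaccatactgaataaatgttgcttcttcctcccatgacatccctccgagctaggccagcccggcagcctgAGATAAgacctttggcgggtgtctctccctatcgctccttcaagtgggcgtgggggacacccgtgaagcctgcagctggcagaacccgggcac
Cdc6 (chr11:98907901-98908200): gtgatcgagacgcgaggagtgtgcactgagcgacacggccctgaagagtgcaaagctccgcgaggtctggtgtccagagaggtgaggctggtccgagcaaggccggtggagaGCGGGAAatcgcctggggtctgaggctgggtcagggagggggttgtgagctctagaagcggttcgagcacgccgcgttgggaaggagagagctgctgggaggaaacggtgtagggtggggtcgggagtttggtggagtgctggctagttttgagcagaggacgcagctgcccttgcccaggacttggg

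The motifs were TTGCNNAA for C/EBP factors, AGATAA for GATA factors, AGGAAGT for PU.1 and other ETS factors, and TTCCCGC for E2F factors, searched on both strands. None of these motifs overlapped another within the windows shown. In the Ltf window a C/EBP match on the minus strand began 75 bases before the start and a GATA match lay 32 bases before it. The Rhd window held a GATA match 43 bases before the start, and the Cdc6 window held an E2F match on the minus strand 138 bases before it. Among all 27025 RefSeq promoter windows, 10.8% held the C/EBP motif, 11.4% the GATA motif, 9.57% the PU.1 motif and 4.66% the E2F motif. Among the 10545 tested genes with an entry these shares were 8.55%, 6.60%, 9.65% and 8.52%. Of 24 secondary granule genes 20 had an entry, and 6 of them held the C/EBP motif and 8 the PU.1 motif. Of 41 erythroid genes 30 had an entry, and 10 held the GATA motif and 1 the PU.1 motif. Of 46 replication genes 37 had an entry, and 14 held the E2F motif, against 0 of 32 mitotic genes with one. A match is a description of these letters and says nothing of binding.

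The marker genes followed the sorts. Levels are given as CPM, the read counts relative to library size, scaled so that most genes balance between libraries, and a fold change is LK relative to CD11b. Itgam measured 3628, 3388 and 3469 CPM in the CD11b libraries and 54.2, 46.3 and 45.0 CPM in the LK libraries. Kit measured 189, 216 and 214 CPM in LK cells and 72.8, 64.6 and 65.2 CPM in CD11b cells. Neither gene's groups overlapped, and because the sorts selected on their products these values check the labels and are no finding. The log2 difference of Kit was 1.61 ± 0.07 (SE), the smallest of the 4 markers. Cd34, a surface sialomucin of progenitors, was not used in the sorts. It measured 150.5, 144 and 145 CPM in LK cells and 1.55, 1.01 and 1.11 CPM in CD11b cells, a log2 fold change of 6.89 ± 0.11 (adjusted p = 5.64e-10). S100a8, which encodes a subunit of calprotectin in mature neutrophils, measured 28852, 41444 and 40594 CPM in CD11b cells. In LK cells it measured 369, 242 and 229 CPM, a log2 fold change of -7.04 ± 0.27 (adjusted p = 3.07e-08). In bulk libraries fewer cells of a type and less RNA per cell cannot be told apart, here and in all that follows.

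**Figure D1:**
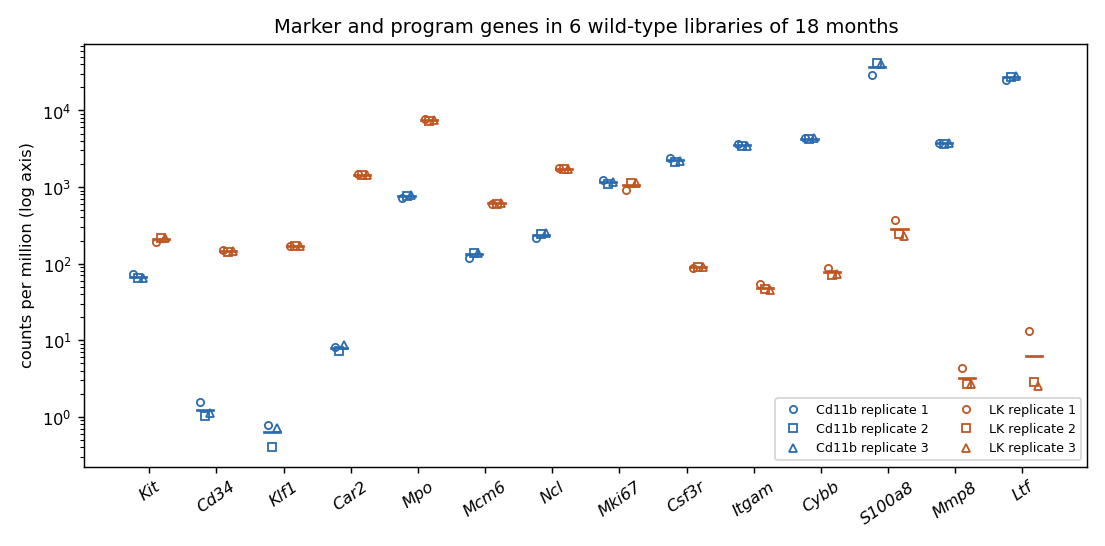
CPM (log axis) of named genes in each of the 3 CD11b and 3 LK wild-type libraries, 1 symbol per replicate, with the group mean as a line. Cd34 lies near 146 CPM in LK cells and near 1.22 CPM in CD11b cells, while Ltf lies near 26958 CPM in CD11b cells and between 2.52 and 13.003 CPM in LK cells.

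Library totals ranged from 41909460 to 68260809 gene counts in CD11b cells and from 31853263 to 51198265 in LK cells, and TE counts ranged from 1021701 to 2305226. The 20 genes with the most counts held 18.2% to 21.0% of the CD11b counts, led by S100a9, and 6.64% to 7.12% of the LK counts, led by Eef1a1, a translation factor. Scaling factors accordingly lay between 0.769 and 0.780 for CD11b cells and between 1.28 and 1.30 for LK cells. In both groups replicates 2 and 3 lay closer together than either did to replicate 1. The chi-square of their counts per degree of freedom was 3.06 for LK and 4.999 for CD11b cells, against 20.3 to 48.4 for pairs with replicate 1, so they still differed by more than sampling noise. LK replicate 1 carried more mature-cell transcripts than the other LK libraries. Its secondary granule genes summed to 2205 CPM against 1655 and 1663 CPM, and its mature neutrophil genes to 1493 CPM against 1142 and 1119 CPM. The fold changes of the genes most depleted in LK cells move with this library and are given without it where that matters.

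Most of the transcriptome differed between the cell types. With edgeR's quasi-likelihood test, 86.9% of the tested genes (11879) passed an adjusted p under 0.05. A call below needs in addition a fold change of 2 or more. By that rule 4043 genes were called higher in LK cells, 29.6% of those tested, and 3757 higher in CD11b cells, 27.5%. Differences of 8-fold or more numbered 911 toward LK cells and 1061 toward CD11b cells, and the median over all tested genes was 0.07 on the log2 scale. The 2 groups of libraries did not overlap for 12088 genes, so that absence of overlap marks nothing particular here. The split of calls depends on the scaling. LK cells made up 51.8% of calls with TMM factors, 60.4% with upper-quartile factors (4777 and 3130 genes) and 72.5% with library totals alone (6190 and 2347 genes). The median over all genes was 0.35 and 0.81 under those scalings. Counts of a gene list near that median move with it, and such lists are marked below. The count of called members of any list is to be read against the 29.6% and 27.5% of all tested genes.

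**Figure D2:**
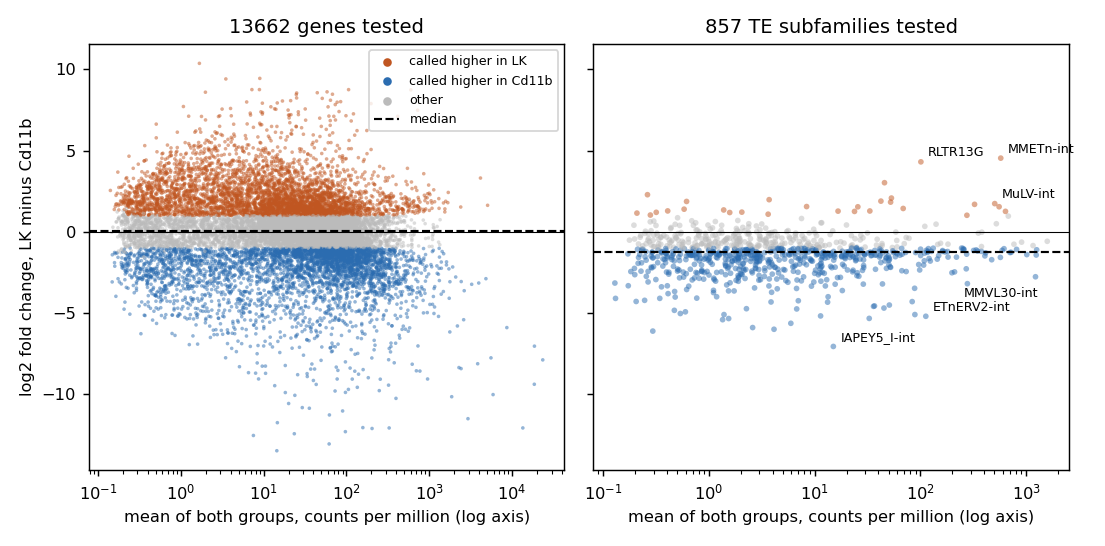
Log2 fold change (LK minus CD11b) against mean level (CPM, log axis) for 13662 genes and 857 TE subfamilies, wild type, 1 point per feature. Calls are coloured and the dashed line is the median, which lies at 0.07 for genes and at -1.27 for subfamilies.

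The genes with the largest fold change toward LK cells, with at least 20 CPM in the higher group, included Car1 and Cldn13 of the erythroid list. Pklr, the pyruvate kinase of red cells and liver, measured 208, 213 and 215 CPM in LK cells and 0.561, 0.581 and 0.362 CPM in CD11b cells, a log2 fold change of 8.76 ± 0.11. Car1, a carbonic anhydrase of red cells, measured 1225, 1169 and 1194 CPM in LK cells and 2.96, 2.69 and 2.71 CPM in CD11b cells, 8.74 ± 0.07. The others were Atp1b2 (a sodium pump subunit), Slc38a5 (an amino acid transporter), Slc25a21 (a mitochondrial carrier), Sphk1 (sphingosine kinase), Aldh1a7, Atp7b (a copper transporter), Tmem56 and Cldn13 (a claudin). Their log2 fold changes ran from 8.11 for Cldn13 to 8.62 for Atp1b2. Each of these 10 genes stayed under 3 CPM in every CD11b library.

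Toward CD11b cells the 10 largest included 5 genes of the mature neutrophil list and 2 of the secondary granule list. They were Gpr27, Ceacam10, Scrg1, Stfa2l1, Ly6g, Fpr2, Ltf, Fpr1, Stfa1 and Mmp9. Ly6g, the surface antigen by which mouse neutrophils are identified, measured 417, 405 and 401 CPM in CD11b cells and 0.115, 0.0453 and 0.121 CPM in LK cells, a log2 fold change of -12.12 ± 0.13. LK cells were sorted as negative for lineage markers, and whether the product of Ly6g was among these markers was not checked. Ltf measured 25289, 27426 and 28158 CPM in CD11b cells and 13.003, 2.84 and 2.52 CPM in LK cells. The fold change of Ltf was -12.08 ± 0.95 with all libraries and -13.32 without LK replicate 1. Mmp9 (gelatinase of tertiary granules) measured 6182, 5669 and 5748 CPM against 3.90, 0.936 and 1.04 CPM, a fold change of -11.51 ± 0.64, or -12.57 without LK replicate 1. Fpr1 and Fpr2, receptors for formylated bacterial peptides, averaged 316 and 656 CPM in CD11b cells and rest on 12 and 25 LK counts in all. Gpr27 had 0 counts in every LK library and 28.9 ± 8.84 CPM (SD, n = 3) in CD11b cells, which makes it at least 518-fold higher there against a floor of 3 counts per library. Ceacam10 had 2 LK counts and 124 CPM in CD11b cells, Scrg1 had 1 and 47.0 CPM, Stfa1 had 1 and 29.3 CPM, and Stfa2l1 had 6 and 194 CPM. The Stfa genes (stefins, cysteine protease inhibitors) are near-identical copies whose reads the counting may have split, so their separate values are uncertain.

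Stem and early progenitor genes were higher in LK cells. Of 40 tested, 33 were called higher in LK cells, against 29.6% of all tested genes, and 3 higher in CD11b cells, against 27.5%. Another 4 changed by under 2-fold, and the median log2 fold change was 3.26. Gfi1b, a repressor that directs erythroid and megakaryocyte fates, measured 113, 111 and 114 CPM in LK cells against 1.43, 1.41 and 1.41 CPM, a fold change of 6.31 ± 0.06 on the log2 scale. Gpr56, an adhesion receptor of stem cells, averaged 348 ± 18.1 CPM (SD, n = 3) against 4.62 ± 0.375 CPM. Myb, a transcription factor that keeps progenitors dividing, averaged 472 and 95.3 CPM, a log2 fold change of 2.31 ± 0.05. The 3 genes that went the other way included 2 factors of early hematopoiesis. Erg, an ETS factor of stem cells, differed by -1.45 ± 0.07 and Hoxb4 by -1.34 ± 0.12. Without scaling factors Erg and Hoxb4 differed by under 2-fold, at -0.72 and -0.62. Hmga2, a chromatin protein of fetal stem cells, and Nkx2-3, a homeobox factor, were listed in the LK set only, at 0.807 and 2.30 CPM on average.

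Cytokine receptors were mostly higher in CD11b cells. Of 30 tested, 21 were called higher in CD11b cells, against 27.5% of all tested genes, and 5 higher in LK cells, against 29.6%, with a median of -2.47. The 5 included Epor, Flt3 and Il1r1, and also Kit, which the sort selected on. Epor, the erythropoietin receptor, averaged 77.5 ± 1.38 CPM against 1.70 ± 0.0778 CPM, a log2 fold change of 5.51 ± 0.07. Flt3, a receptor of early lymphoid and myeloid progenitors, averaged 35.3 against 7.38 CPM (2.26 ± 0.06). Csf3r, the receptor for the granulocyte factor G-CSF, measured 2422, 2105 and 2159 CPM in CD11b cells and 87.6, 91.5 and 90.6 CPM in LK cells, a fold change of -4.63 ± 0.08. Il1r2, the decoy receptor for interleukin-1, differed by -7.16 ± 0.11 and Il18rap by -4.86 ± 0.12.

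Transcription factors of myeloid cells were mostly higher in CD11b cells. Of 30 tested, 22 were called higher in CD11b cells, against 27.5% of all tested genes, and 3 in LK cells, against 29.6%. The median was -2.67. Mxd1, which opposes MYC in cells that stop dividing, measured 1241, 1075 and 1108 CPM in CD11b cells and 19.2, 18.4 and 19.1 CPM in LK cells, a log2 fold change of -5.92 ± 0.08. Maf, a factor of macrophages, differed by -4.08 ± 0.20, and Junb, a subunit of AP-1, by -3.39 ± 0.10. The 3 factors higher in LK cells were Zbtb46 (a factor of classical dendritic cells, 4.38 ± 0.13), Runx3 (1.28 ± 0.09) and Irf8 (a factor of monocytes and dendritic cells, 1.07 ± 0.05). The Irf8 difference lay just above 2-fold and came to 0.99 with DESeq2's size factors.

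The primary and secondary granule lists differed in direction. Of 17 tested members of the primary granule list, 10 were called higher in LK cells, against 29.6% of all tested genes. Another 5 were called higher in CD11b cells, a share near the 27.5% of all tested genes, and the median was 1.21. Mpo, myeloperoxidase, measured 7817, 7380.3 and 7447 CPM in LK cells and 726, 769.8 and 784 CPM in CD11b cells, a log2 fold change of 3.31 ± 0.07 (adjusted p = 1.08e-09). Ctsg, cathepsin G, measured 1087, 994 and 988 CPM against 58.5, 72.6 and 73.0 CPM, 3.91 ± 0.10. Cst7, an inhibitor of cysteine proteases, differed by 2.75 ± 0.08. LK cells were above CD11b cells in every library for these 3 genes. The list members higher in CD11b cells were F630028O10Rik (-3.19 ± 0.08), Igsf6 (-2.84 ± 0.05), Serpinb1a (an inhibitor of neutrophil proteases, -2.19 ± 0.09), Ctsc and Clec12a. Not all of these encode proteins of the granules, so the list is wider than its name. Bpi, a bactericidal protein, was listed in the CD11b set only and with 10 counts in all.

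Secondary granule genes went the opposite way. Of 24 tested, 23 were called higher in CD11b cells, 0 higher in LK cells and 1, B2m, changed by under 2-fold. The median log2 fold change was -6.83, and the list summed to between 129704 and 144876 CPM in CD11b libraries and to between 1655 and 2205 CPM in LK libraries. Ngp, the neutrophilic granule protein, measured 34244, 37982 and 38907 CPM in CD11b cells and 103, 31.3 and 30.5 CPM in LK cells. Its fold change was -9.39 ± 0.73 with all libraries and -10.26 without LK replicate 1. Mmp8, neutrophil collagenase, averaged 3730.4 ± 65.6 CPM against 3.23 ± 0.957 CPM, -10.16 ± 0.21.

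All 39 tested genes of mature neutrophils were called higher in CD11b cells, with a median of -6.11. S100a9, the partner of S100a8, measured 40266, 50052 and 49854 CPM in CD11b cells and 298, 148 and 145 CPM in LK cells, a fold change of -7.89 ± 0.36. Stfa3 had 0 counts in every LK library and 15.1 ± 4.22 CPM in CD11b cells, at least 270-fold higher against the floor of 3 counts per library. Its copies Stfa2 and BC100530 were listed in the CD11b set only, at 15.3 and 17.8 CPM on average. Putting Stfa3 at its bound left the list's median at -6.11.

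**Figure D3:**
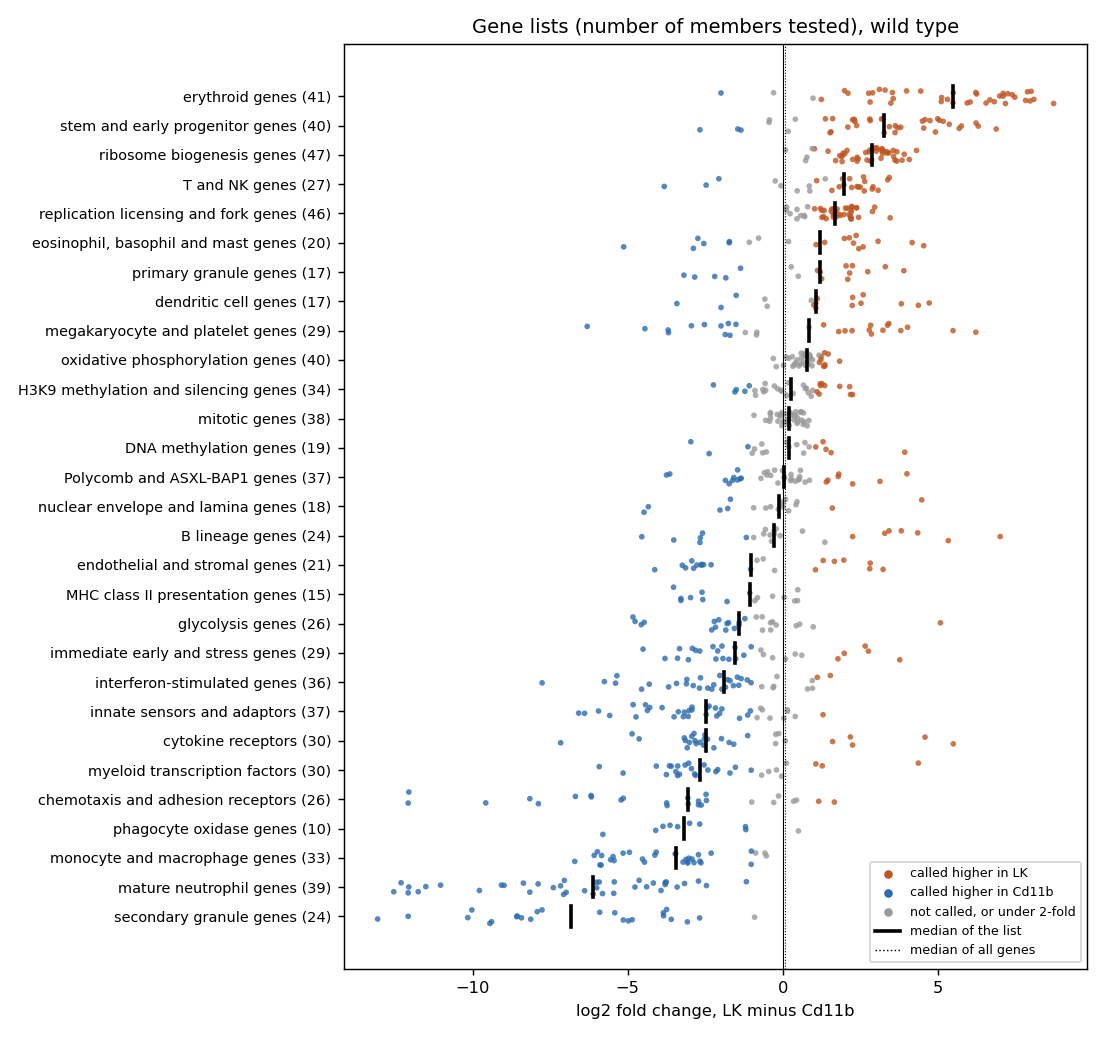
Log2 fold change (LK minus CD11b, wild type) of the tested members of each gene list, 1 point per gene, with the list's median as a bar. Erythroid genes have a median of 5.51 and secondary granule genes of -6.83, and the median of all tested genes is 0.07.

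The effector equipment of phagocytes followed the late granule genes. Of 10 phagocyte oxidase genes 9 were called higher in CD11b cells, with a median of -3.20. Cybb, the membrane subunit that makes superoxide, measured 4328, 4229 and 4338 CPM in CD11b cells and 86.9, 71.5 and 72.9 CPM in LK cells, a fold change of -5.80 ± 0.10. The cytosolic subunits Ncf1 and Ncf4 differed by -4.09 ± 0.07 and -3.86 ± 0.07. Of 26 chemotaxis and adhesion receptors 19 were called higher in CD11b cells, led beside the formyl peptide receptors by C5ar1 (the complement C5a receptor, -9.58 ± 0.10), and 2 higher in LK cells, Pecam1 and Itga5. Of 37 innate sensors and adaptors 28 were called higher in CD11b cells, with a median of -2.47. Tlr13, a sensor of bacterial ribosomal RNA, averaged 300.2 against 3.13 CPM (-6.58 ± 0.14), Tlr5, the flagellin receptor, 35.4 against 0.407 CPM (-6.39 ± 0.14) and Nlrp12 133 against 2.16 CPM (-5.94 ± 0.18). Mavs, the adaptor of cytosolic RNA sensing, was the 1 sensor gene called higher in LK cells (1.30 ± 0.08). Clec4n was listed in the CD11b set only, at 11.1 CPM on average.

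Interferon-stimulated genes were higher in CD11b cells as well. Of 36 tested, 27 were called higher there, against 27.5% of all tested genes. In LK cells 2 were called higher, Isg20 and Bst2, against 29.6%, and the median was -1.90. Ifit3 averaged 15.1 ± 1.38 CPM in CD11b cells and 0.268 ± 0.105 CPM in LK cells, and Ifi204, a DNA sensor, 70.8 ± 7.44 against 1.66 ± 0.496 CPM, a log2 fold change of -5.39 ± 0.17. I830012O16Rik, a close copy of Ifit3 that may share its reads, rests on 5 LK counts and differed by -7.76 with all libraries and by -9.14 without LK replicate 2. Bst2, tetherin, came to 0.96 without LK replicate 1. Of 15 genes of MHC class II presentation, 8 were called higher in CD11b cells, against those 27.5%, and 0 in LK cells, against 29.6%. H2-Eb1 measured 174, 192 and 194 CPM against 20.7, 14.3 and 13.6 CPM (-3.52 ± 0.16), and Cd74, the invariant chain, averaged 521 against 53.5 CPM (-3.28 ± 0.15).

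Monocyte and macrophage genes were higher in CD11b cells in 30 of 33 tested members, with a median of -3.45. Fn1, fibronectin, measured 1681, 1137 and 1179 CPM in CD11b cells and 133, 114 and 118 CPM in LK cells, a fold change of -3.45 ± 0.16. The complement genes C1qb and C1qc, made by macrophages, averaged 84.3 and 73.2 CPM in CD11b cells and 1.202 and 1.11 CPM in LK cells. Their fold changes were -6.08 ± 0.46 and -5.98 ± 0.56, and -7.22 and -7.47 without LK replicate 1. Ace, a peptidase of patrolling monocytes, differed by -6.71 ± 0.36, or by -7.48 without that library. The 3 members under 2-fold were Ly6c2 (-0.87), Ccl9 (-0.57) and F13a1 (-0.53).

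Erythroid genes had the highest median of the 29 lists. Of 41 tested genes, 38 were called higher in LK cells and 1 higher in CD11b cells, and the median log2 fold change was 5.51. The list summed to between 8748 and 9305 CPM in LK libraries and to between 955 and 1023 CPM in CD11b libraries. Klf1, whose promoter is shown above, measured 170.0, 170.2 and 169 CPM in LK cells and 0.785, 0.398 and 0.705 CPM in CD11b cells, a fold change of 8.02 ± 0.12 on the log2 scale. Car2, a carbonic anhydrase, measured 1462, 1427 and 1433 CPM against 8.05, 7.19 and 8.69 CPM, 7.49 ± 0.09. The spread between libraries was small beside these differences. Nfe2, a factor of erythroid and megakaryocyte cells that myeloid cells also express, went the other way, at 484 ± 10.3 CPM in CD11b and 122 ± 5.44 CPM in LK cells (-1.99 ± 0.05). Slc25a37 (-0.29) and Bpgm (0.98) changed by under 2-fold.

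Megakaryocyte and platelet genes were called in both directions, with 14 of 29 called higher in LK cells and 11 higher in CD11b cells. Of all tested genes 29.6% and 27.5% were called so. Those higher in LK cells included the factors Zfpm1, a partner of GATA1 (265 against 3.52 CPM, 6.23 ± 0.10), and Gata1 itself (127 against 2.82 CPM, 5.50 ± 0.12). The platelet glycoproteins and granule proteins Itga2b, Gp5, Gp9, Gp1ba, Pf4 and Vwf were also called higher in LK cells, with fold changes of 1.81 to 3.81 on the log2 scale. Those higher in CD11b cells included Thbs1, P2ry12 and Nbeal2. Thbs1, thrombospondin, measured 461, 264 and 269 CPM in CD11b cells and 4.57, 3.79 and 4.22 CPM in LK cells (-6.31 ± 0.28). P2ry12, an ADP receptor, differed by -4.44 ± 0.15 and Nbeal2, needed for platelet alpha granules, by -3.69 ± 0.10.

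Genes of eosinophils, basophils and mast cells were called in both directions. Of 20 tested, 11 were called higher in LK cells, against 29.6% of all tested genes. Another 6 were called higher in CD11b cells, a share near the 27.5% of all tested genes. Gata2, a factor of progenitors and mast cells, measured 78.3, 76.6 and 75.8 CPM in LK cells and 3.74, 2.84 and 3.18 CPM in CD11b cells (4.55 ± 0.09). Cpa3, a mast cell protease that progenitors also express, averaged 37.0 against 2.03 CPM (4.18 ± 0.20). Epx, eosinophil peroxidase, averaged 78.9 ± 15.5 CPM in LK cells and 9.31 ± 5.67 CPM in CD11b cells, a fold change of 3.08 ± 0.43, or of 3.72 without CD11b replicate 1. Ccr3, the eotaxin receptor, differed by -5.13 ± 0.41, or by -6.08 without LK replicate 1, and Hdc, histidine decarboxylase, by -2.88 ± 0.07. Tpsb2 and Cma1, mast cell proteases, were listed in the LK set only, each with under 1 CPM.

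Of 24 B lineage genes tested, 7 were called higher in LK cells and 6 higher in CD11b cells, shares near the 29.6% and 27.5% of all tested genes. Another 10 did not pass the test and 1 changed by under 2-fold. Dntt, which adds bases to antigen receptor joints, measured 46.5, 36.8 and 37.7 CPM in LK cells and 0.0448, 0.520 and 0.400 CPM in CD11b cells (7.02 ± 0.32). Rag1, Rag2, Vpreb1, Igll1, Il7r and Cecr2 were the others called higher in LK cells. Bank1, a B cell adaptor, averaged 26.7 against 1.13 CPM (-4.55 ± 0.15), with Ms4a1 (CD20) at -2.67 ± 0.25 and Cd22 at -2.59 ± 0.25. The whole B lineage list summed to 334, 1836 and 1839 CPM in the CD11b libraries and to 660, 1377 and 1358 CPM in the LK libraries. That sum is mostly Igj, the joining chain of plasma cells, at 214, 1685 and 1689.8 CPM in CD11b cells and 488, 1248 and 1229.8 CPM in LK cells. Replicate 1 was the low library in both groups, and the Igj fold change of -0.28 ± 0.87 was not called (adjusted p = 0.778).

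Of 27 T and NK cell genes 18 were called higher in LK cells, against 29.6% of all tested genes. Another 3 were called higher in CD11b cells, against 27.5%, and the median was 1.97. The list summed to between 207 and 259 CPM in LK libraries and to between 71.9 and 87.4 CPM in CD11b libraries. Nkg7, a protein of cytotoxic granules, measured 169, 144 and 144 CPM in LK cells against 30.8, 35.2 and 36.4 CPM (2.16 ± 0.09), and Lck, a kinase of T cell receptor signalling, 9.42, 6.60 and 6.64 CPM against 1.03, 0.948 and 0.724 CPM (3.08 ± 0.21). The genes higher in CD11b cells included Cd4, which some myeloid cells carry (-3.82 ± 0.37), and Cd3d (-2.47 ± 0.35, or -3.14 without LK replicate 1). LK replicate 1 was the highest LK library for Nkg7, Lck and Thy1. Of 17 dendritic cell genes 11 were called higher in LK cells, against those 29.6%, among them Siglech (plasmacytoid dendritic cells, 3.83 ± 0.20) and Flt3. Another 3 were called higher in CD11b cells, against 27.5%, among them Cd209a (-3.41 ± 0.21). Of 21 endothelial and stromal genes 7 were called higher in LK cells, a share near the 29.6% of all tested genes. Another 11 were called higher in CD11b cells, against 27.5%. The 21 genes summed to between 454 and 489 CPM in LK libraries and to between 474 and 672 CPM in CD11b libraries. Among them Cxcl12, a chemokine of marrow stroma, measured 24.2, 84.2 and 83.6 CPM in CD11b cells against 6.53, 10.9 and 10.8 CPM (-2.77 ± 0.56, adjusted p = 0.0045), and its adjusted p was 0.052 when replicates 2 and 3 were summed. What share of any gene's difference comes from such other cells was not tested.

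Genes of DNA replication were higher in LK cells, while mitotic genes were not called. Of 46 genes of replication licensing and the replication fork, 37 were called higher in LK cells and 0 higher in CD11b cells, with a median of 1.69. Mcm6, a subunit of the replicative helicase, measured 607, 607 and 613 CPM in LK cells and 120.0, 136 and 139 CPM in CD11b cells (2.21 ± 0.07). Orc1, of the origin recognition complex, averaged 39.7 against 3.55 CPM (3.47 ± 0.13), with Pold2 at 2.97 ± 0.07 and Orc2 at 2.90 ± 0.06. Of 38 mitotic genes, by contrast, 0 were called in either direction. Among them 29 passed the adjusted p with a change of under 2-fold and 9 did not pass it, and the median was 0.20. Mki67, the proliferation antigen, measured 913, 1112 and 1129.8 CPM in LK cells and 1247, 1111 and 1152 CPM in CD11b cells. These groups overlap, and the difference of -0.15 ± 0.09 (adjusted p = 0.140) becomes 0.12 with upper-quartile factors and 0.58 without factors. Without factors 15 mitotic genes were called higher in LK cells.

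Ribosome biogenesis genes were higher in LK cells in 43 of 47 tested, with a median of 2.87 and none called higher in CD11b cells. Gnl3, nucleostemin, measured 178, 168 and 169.9 CPM in LK cells and 7.69, 8.90 and 9.28 CPM in CD11b cells (4.32 ± 0.08). Ncl, nucleolin, averaged 1731 ± 46.7 against 235 ± 19.4 CPM (2.88 ± 0.07), and Gar1, of the ribosomal RNA modification particles, 87.0 against 5.16 CPM (4.09 ± 0.13). Of 40 nuclear genes of oxidative phosphorylation 9 were called higher in LK cells, a smaller share than the 29.6% of all tested genes, and 0 higher in CD11b cells, with a median of 0.78. Atp5b, a subunit of ATP synthase, averaged 1433 against 574 CPM (1.32 ± 0.06). This count rests on the scaling, since it was 23 with upper-quartile factors and 34 without factors. Of 26 glycolysis genes 15 were called higher in CD11b cells, against 27.5% of all tested genes, with a median of -1.41. Slc2a3, a glucose transporter, measured 1169, 1009 and 1024 CPM in CD11b cells and 37.8, 37.9 and 36.8 CPM in LK cells (-4.83 ± 0.08), and Slc16a3, which exports lactate, differed by -4.76 ± 0.10. Pfkm, the muscle form of phosphofructokinase, was the 1 glycolysis gene called higher in LK cells, at 107 ± 5.45 against 3.14 ± 0.286 CPM (5.09 ± 0.08).

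Genes of chromatin silencing are the subject of the series title. Of 34 genes of H3K9 methylation and silencing 10 were called higher in LK cells, a share near the 29.6% of all tested genes, and 5 higher in CD11b cells, against 27.5%, with a median of 0.26. Trim28, the corepressor that KRAB zinc finger proteins recruit to retroviral repeats, measured 500.2, 499 and 496 CPM in LK cells and 113, 109 and 113 CPM in CD11b cells (2.16 ± 0.04). Suv39h2, an H3K9 methyltransferase, differed by 2.25 ± 0.09 and Chaf1b, of chromatin assembly factor 1, by 2.19 ± 0.06. Prdm2 (-2.23 ± 0.10), Atf7ip (-1.54 ± 0.15) and Kdm4c (an H3K9 demethylase, -1.497 ± 0.06) were higher in CD11b cells, together with Morc3 and Kdm3b. Ehmt1 and Ehmt2, which encode the EHMT proteins of the title, changed by under 2-fold, at 0.34 and 0.76. Without factors the counts of this list were 17 and 1, so its split rests on the scaling.

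Of 37 Polycomb and ASXL-BAP1 genes 7 were called higher in LK cells, against 29.6% of all tested genes. Another 10 were called higher in CD11b cells, a share near the 27.5% of all tested genes. Without factors these counts were 16 and 3. Asxl1 was among the 10 higher in CD11b cells, at 320.1, 289 and 303 CPM there and 102, 114 and 116 CPM in LK cells (-1.46 ± 0.07, adjusted p = 9.73e-08). Cbx6 (4.01 ± 0.10) and Cbx2 (3.14 ± 0.14), readers of methylated histone H3, were higher in LK cells, and Kdm6b, an H3K27 demethylase, higher in CD11b cells (-3.75 ± 0.14). Of 19 DNA methylation genes 5 were called higher in LK cells and 3 higher in CD11b cells. Another 10 changed by under 2-fold, among them Dnmt1 (0.85 ± 0.07), and the median of the list was 0.20. Dnmt3b, a de novo methyltransferase, averaged 30.7 against 1.98 CPM (3.94 ± 0.13), while Tet2, which oxidizes methylated cytosine, averaged 25.6 against 55.6 CPM (-1.12 ± 0.14, or -0.84 with upper-quartile factors). Of 18 nuclear envelope and lamina genes 2 were called higher in LK cells and 5 higher in CD11b cells, with a median of -0.11. Lmna, the A-type lamin, averaged 110.3 ± 3.50 CPM in LK cells and 4.94 ± 0.596 CPM in CD11b cells (4.49 ± 0.09). Syne1 and Syne2, which link the nuclear envelope to the cytoskeleton, went the opposite way (-4.47 ± 0.10 and -4.33 ± 0.17). Immediate early and stress genes also respond to cell handling. They were called higher in CD11b cells in 18 of 29, against 27.5% of all tested genes. Another 5 were called higher in LK cells, against 29.6%, and the median was -1.54. The sum of this list ranged from 8157 to 10516 CPM in CD11b libraries and from 3439 to 3593 CPM in LK libraries. The part of handling in it was not tested.

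TE subfamilies shifted as a body toward the CD11b cells. TE counts were scaled by the library sizes and factors of the genes, which leaves a general shift visible. Of 857 subfamilies tested, 86.2% (739) passed an adjusted p under 0.05. Of these 29 were called higher in LK cells, 3.38% of those tested, and 549 higher in CD11b cells, 64.1%. The median log2 fold change was -1.27, and 781 of the 857 subfamilies had a negative value. The size of this shift depends on the scaling. With DESeq2's size factors from the genes the median was -1.35, and with upper-quartile factors from the genes it was -0.99. Factors from the TE counts themselves centre the subfamilies by construction, so their result does not test the shift. They gave a median of 0.01, with 125 and 152 subfamilies called higher in LK and CD11b cells. That is 45.1% of calls toward LK cells against 5.02% above. With library totals alone the median was -0.53, with 57 and 241 called. Factors from TE counts and library totals alone both move the values toward LK cells. All 29 subfamilies called higher in LK cells stayed called under them, which is therefore no check of these calls. Single subfamilies below are best read against the median of -1.27.

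Summed TE counts were also set against summed gene counts, without scaling factors. They came to 30.2 to 32.2 per 1000 gene counts in LK libraries and to 33.4 to 36.4 in CD11b libraries. With 3 against 3 libraries the exact 2-sided permutation test cannot go below p = 0.1, which is the value reached. Over the 12 libraries of both genotypes, with cell types exchanged within genotype, the smallest p that the 400 arrangements of this exact permutation test allow is 0.005. LK libraries were lower by 2.63 TE counts per 1000 gene counts on average over those 12 libraries (exact permutation p = 0.005, adjusted p = 0.00682 over 15 sums). SINE counts were lower in LK cells by 2.38 and DNA transposon counts by 0.285, at the same p. These sizes rest on the denominator: without the 20 genes with the most counts, which hold a larger share of the CD11b counts, the differences were -9.71 for all TE, -5.49 for SINE and -0.520 for DNA transposon counts (exact permutation p = 0.005 each). LINE counts were 0.593 higher in LK cells over the 12 libraries (exact permutation p = 0.045, adjusted p = 0.0482), while in wild type alone they averaged 6.98 ± 0.190 and 6.94 ± 0.155 per 1000 (SD, n = 3). Without CD11b replicate 1 or without LK replicate 1 the exact permutation p was 0.07 or 0.075. The LINE result changes sign with that denominator, to -0.787 (exact permutation p = 0.015). LTR counts differed by -0.544 over the 12 libraries (exact permutation p = 0.06) and by -0.139 in wild type alone (exact permutation p = 0.8). Leaving out 1 wild-type library from the 12 gave p from 0.03, without LK replicate 2 or LK replicate 3, to 0.195, without LK replicate 1. With the smaller denominator the difference over the 12 libraries was -2.85 (exact permutation p = 0.005).

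**Figure D4:**
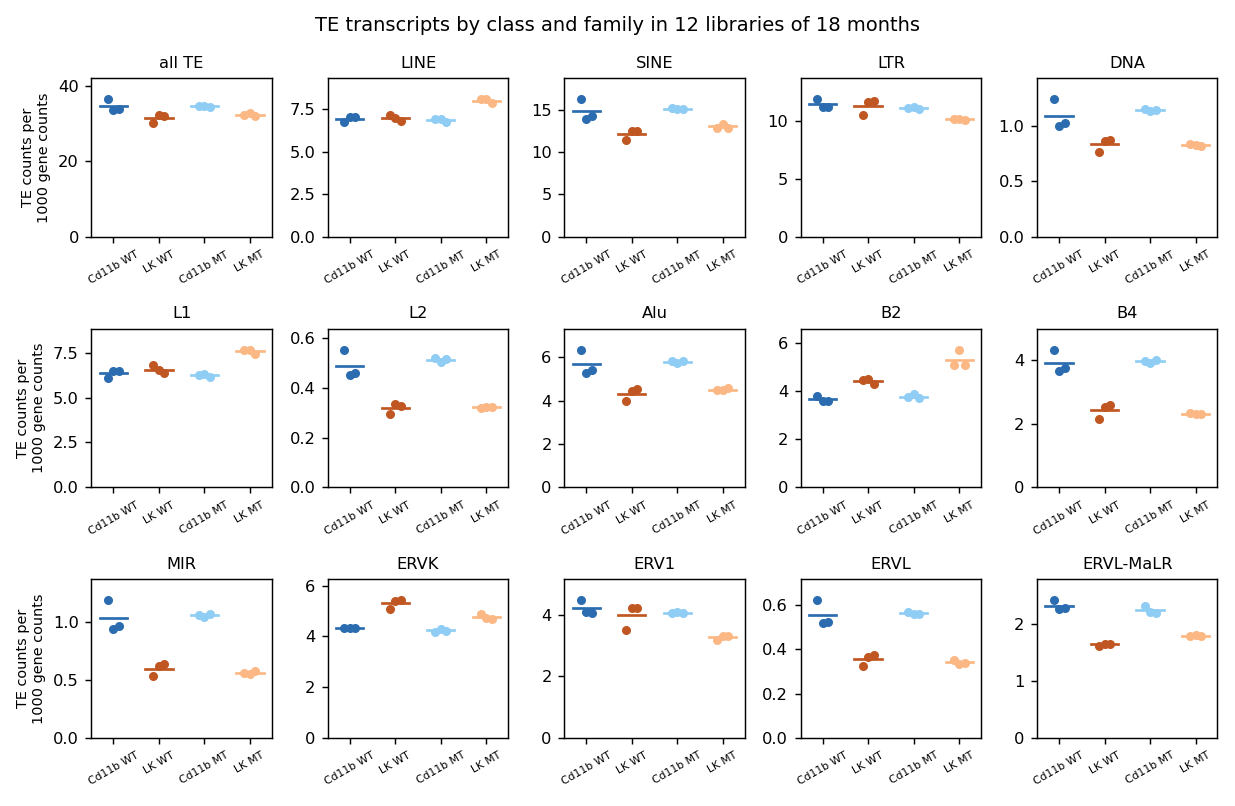
TE counts per 1000 gene counts by repeat class or family in the 18-month libraries, 1 point per library, LK and CD11b, wild type and mutant, with group means as lines. In both genotypes every LK library is above every CD11b library for B2 and for ERVK, MMETn-int included, and below for B4 and MIR.

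Among the families, B2 and ERVK sums were higher in LK cells. B2 elements, short repeats of rodents copied from a tRNA, came to 4.29 to 4.51 counts per 1000 gene counts in LK and to 3.59 to 3.79 in CD11b wild-type libraries. ERVK elements came to 5.07 to 5.43 and to 4.32 to 4.34. Over the 12 libraries B2 counts were 1.146 higher and ERVK counts 0.748 higher in LK cells, each with exact permutation p = 0.005. Without the 20 genes with the most counts in the denominator the B2 difference was 0.434 (exact permutation p = 0.05) and the ERVK difference -0.0975 (exact permutation p = 0.32). In wild type alone that denominator gave B2 counts of 4.59, 4.64 and 4.42 in LK and of 4.61, 4.51 and 4.51 in CD11b libraries. These wild-type groups overlap. The ERVK sum also turns on 1 subfamily, MMETn-int, which alone came to 1.27, 1.49 and 1.51 counts per 1000 gene counts in LK and to 0.0375, 0.0360 and 0.0371 in CD11b libraries. The rest of ERVK came to 3.80, 3.93 and 3.92 in LK and to 4.31, 4.29 and 4.303 in CD11b libraries, and over the 12 libraries it was lower in LK cells by 0.362 (exact permutation p = 0.005). Of 259 ERVK subfamilies tested, 163 were called higher in CD11b cells and 13 higher in LK cells, with a median of -1.38, close to that of all subfamilies. B4 counts were lower in LK cells by 1.57, Alu counts, which in mouse are B1 repeats, by 1.33, and MIR counts by 0.464 (exact permutation p = 0.005 each). Of the 5 B2 subfamilies 2, the young B2_Mm1a and B2_Mm1t, had higher levels in LK cells. B2_Mm1a measured 974, 916 and 803 CPM in LK cells and 337, 540.5 and 502 CPM in CD11b cells (0.97 ± 0.15), while the older B3 measured 729, 824 and 839.8 CPM against 1925, 1585 and 1653 CPM (-1.11 ± 0.12). B3 stood at 0.16 with factors from TE counts.

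The LTR class held 23 of the 29 subfamilies called higher in LK cells, and ERVK held 13 of them. LTR subfamilies also made up 521 of the 857 tested, and 324 of them were called higher in CD11b cells. MMETn-int, the internal part of the ETn early transposon that lacks its own coding genes, had the largest fold change. It measured 997, 1148 and 1166 CPM in LK cells and 48.1, 46.1 and 48.2 CPM in CD11b cells, 4.54 ± 0.12 on the log2 scale (adjusted p = 6.81e-15). RLTRETN_Mm, an LTR of these elements, measured 78.5, 88.8 and 77.1 CPM against 8.81, 11.2 and 10.1 CPM (3.02 ± 0.11). ETnERV2-int, a related internal sequence, went the opposite way, at 228, 212 and 218 CPM in CD11b cells and 5.92, 6.02 and 5.87 CPM in LK cells (-5.20 ± 0.10). The 5 ETn and MusD subfamilies thus spanned the range from -5.20 to 4.54, with 2 called higher in LK cells and 1 higher in CD11b cells.

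Other retroviral repeats higher in LK cells were RLTR13G (192 ± 20.03 against 9.70 ± 0.423 CPM, 4.31 ± 0.11), RLTR30D_RN (2.08 ± 0.09), RLTR13C1 (1.98 ± 0.15) and RLTR11A (1.89 ± 0.11). MuLV-int, the internal part of murine leukemia virus elements, measured 702, 810.2 and 818 CPM in LK cells and 226, 236 and 237 CPM in CD11b cells (1.74 ± 0.10). RLTR4_MM-int, of the same type, went the other way, at 830.1 against 1496 CPM (-0.85 ± 0.11), but stood at 0.41 with factors from TE counts. The 6 subfamilies outside the LTR class were Tigger12 (a DNA transposon, 1.83 ± 0.10), MER63C, and the LINE subfamilies Lx5, Lx3B, L1MEd and X7B_LINE, with values of 1.08 to 1.69 for the LINEs. Libraries of the 2 cell types did not overlap for the subfamilies given here with their values. The same held for 86.2% of all tested subfamilies, so it marks nothing particular.

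Toward CD11b cells the largest differences were also in LTR subfamilies. IAPEY5_I-int, of the intracisternal A particle elements, measured 30.02, 29.1 and 30.3 CPM in CD11b cells and 0.312, 0.136 and 0.218 CPM in LK cells (-7.06 ± 0.19). IAP-d-int, a deleted form, measured 63.2, 64.9 and 63.9 CPM against 1.41, 1.54 and 1.84 CPM (-5.34 ± 0.12). Of 24 IAP subfamilies 15 were called higher in CD11b cells, a share near the 64.1% of all subfamilies, and 0 in LK cells, and the most abundant internal sequence, IAPEz-int, stood at 966 against 568 CPM (-0.77 ± 0.13), above the shift of -1.27. RLTR44D differed by -6.00 ± 0.30, or by -7.16 without LK replicate 1. RLTR47 (-5.64 ± 0.18), RMER16B3 (-5.41 ± 0.32), LTR16E2 (-5.34 ± 0.28) and the old LINE L1M3d (-5.90 ± 0.29) completed the 8 with the largest differences, and in LK cells these 4 rest on 10 to 39 counts. MMVL30-int, of the virus-like VL30 elements, measured 2489.9, 1950.4 and 1982 CPM in CD11b cells against 284, 329.9 and 328 CPM (-2.77 ± 0.13). MERVL-int, known from early embryos, averaged 77.6 against 22.8 CPM (-1.77 ± 0.14), and 6 of 8 subfamilies of its group were called higher in CD11b cells.

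L1 subfamilies stood near the shift of all repeats, of which 64.1% were called higher in CD11b cells. Of 16 young mouse L1 subfamilies 10 were called higher in CD11b cells and 0 in LK cells, with a median of -1.35, and of 81 old L1 subfamilies 55 and 0, with a median of -1.34. Summed L1 counts averaged 6.57 ± 0.214 per 1000 gene counts in LK and 6.37 ± 0.224 in CD11b wild-type libraries (SD, n = 3), and over the 12 libraries they were 0.784 higher in LK cells (exact permutation p = 0.02, adjusted p = 0.025). Without the 20 genes with the most counts in the denominator that difference was -0.471 (exact permutation p = 0.13). L1Md_T, an active young subfamily, measured 476, 428 and 447 CPM in CD11b cells and 87.2, 96.1 and 94.7 CPM in LK cells (-2.28 ± 0.10). L1Md_A, another young subfamily, averaged 184 against 107 CPM (-0.78 ± 0.09), so the young group was not uniform. L1_Mus1 differed by -0.59 ± 0.11 and stood at 0.68 with factors from TE counts and at 0.15 without factors. The mammal-wide L2 and MIR repeats, which are too old to move, were called higher in CD11b cells in 8 of 8 subfamilies, with MIR3 at -2.47 ± 0.12 and L2b at -2.05 ± 0.10. All 12 B1 subfamilies had negative values and 11 were called, from -1.21 to -0.91 over the 12, and PB1D11 and B1_Mur4 stood at 0.06 and 0.07 with factors from TE counts. Major satellite repeats (GSAT_MM) measured 8.81, 9.02 and 10.6 CPM in CD11b cells and 1.496, 0.981 and 1.04 CPM in LK cells (-3.01 ± 0.17). Whether a repeat was read from its own promoter or within another transcript was not tested.

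The same contrast was then taken in the mutant libraries. There 29.9% of 13810 tested genes (4134) were called higher in LK cells and 27.4% (3787) higher in CD11b cells, and of 870 TE subfamilies 3.91% (34) and 59.9% (521). Among the 13599 genes tested in both genotypes, 3706 were called higher in LK cells in both, 91.9% of the wild-type calls and 91.0% of the mutant calls. Toward CD11b cells 3423 were shared, 91.5% and 92.0%. Gm16316, a predicted gene, was the 1 gene called in opposite directions (-1.14 in wild type and 1.59 in the mutant). Among 848 subfamilies 23 calls toward LK cells were shared, 79.3% of the wild-type and 71.9% of the mutant calls, and 464 toward CD11b cells, 85.6% and 91.2%. MMETn-int (3.83), RLTR13G (4.55) and ETnERV2-int (-5.02) kept their directions in the mutant libraries.

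Several genes named above for the size of their wild-type difference had smaller values in the mutant contrast. Car1 stood at 8.74 in wild type and 6.36 in the mutant, with 2.79 and 12.5 CPM in CD11b cells. Ltf stood at -12.08 and -8.44, with 6.12 and 74.3 CPM in LK cells, and Ngp at -9.39 and -6.72, with 55.0 and 344 CPM. Mpo stood at 3.31 and 3.92. Whether these differences between the genotypes exceed the spread was not tested. Nor can a difference in purity of the sorts between the groups of libraries be told apart from one within the cells.

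**Figure D5:**
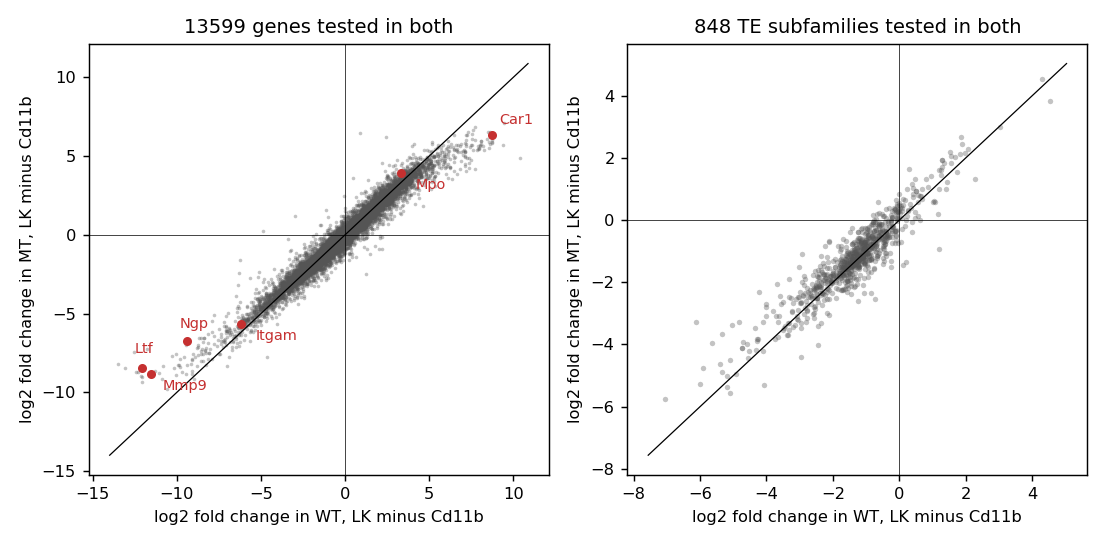
Log2 fold change (LK minus CD11b) in the mutant against the wild-type libraries for the 13599 genes and 848 TE subfamilies tested in both, 1 point per feature, with the line of equal values. Genes at the far ends lie inside the line, as Car1 at 8.74 and 6.36 and Ltf at -12.08 and -8.44.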

How the data were processed

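For each library the authors deposited raw counts, as whole numbers, by gene symbol and by TE subfamily. Per the submitters' processing notes the tools included STAR, HTSeq and DESeq2 and the build was mm10; versions, annotation, strand use and the treatment of multi-mapping reads are not given in the sources used here. Reads of near-identical genes, overlapping genes and repeats inside genes may therefore be shared or lost. Per the labels' protocols the cells were taken from marrow and used at once, RNA was purified with an RNeasy kit, and 200 ng went into a directional NEBNext library kit. Each cell set lists its own features, with sums of at least 10 counts for genes and 2 for subfamilies, so the comparison used features listed in both sets.

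Counts were tested with edgeR 4.0.16 (filterByExpr, TMM factors, robust quasi-likelihood F test, limma 3.58.1, statmod 1.5.0, R 4.3.3), with Benjamini-Hochberg adjustment over all features tested, on the 3 and 3 wild-type libraries without covariates. A call needs an adjusted p under 0.05 and a fold change of 2 or more. Standard errors (SE) of log2 fold changes were obtained by dividing them by the square root of F. TE counts took library sizes and factors from the gene counts. Summed TE counts were compared by exact permutation in R, and figures were drawn with matplotlib 3.10.9. The fit was tested on simulated data in which few genes changed, about evenly in both directions. That does not test the scaling of data in which most genes differ. Floors of 3 counts and standard errors cover no bias of counting.

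Genes were named by rule: the markers, the 10 largest calls in each direction with at least 20 CPM in the higher group and no overlap, up to 3 called members per list and direction with at least 5 CPM, the member of each list with the highest level, and list members of 1 set. For subfamilies the rule took the 8 largest calls in each direction with at least 100 counts, the 5 largest sums and up to 2 calls per repeat group and direction. Members of small counts were named after their values were seen, as were B2_Mm1a, IAPEz-int, L1Md_A, GSAT_MM, Asxl1, Ehmt1, Ehmt2 and the megakaryocyte and B lineage genes listed together. Some genes that the rule names are not reported here, though the counts and medians of their lists include them. The contrast and its lists were chosen with earlier results of these data known. Alternatives covered other scalings, filters, DESeq2 1.42.0, a replicate block, summed or left-out replicates and a fit of all 12 libraries of 18 months. Whether the 2 cell sets were prepared or sequenced together is not stated, so cell type and such a batch cannot be told apart.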

Additional observations from a re-analysis of the deposited data

How the results depend on the processing

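Directions and calls held under most alternatives. Of 2460 values of named genes under other settings 2435 kept their direction and side of the threshold, 14 lost the call, 4 gained it and 7 changed sign. Of 512 values of named subfamilies 493 kept both, 13 lost the call and 6 changed sign, and of 870 counts of list members 846 stayed within 1.5 times. Leaving out each replicate in turn gave 3912 to 4050 genes higher in LK cells, 3771 to 3858 higher in CD11b cells, and 26 to 31 and 528 to 575 subfamilies. No label says that replicate numbers pair libraries, and same-numbered libraries deviated with correlations of -0.001, -0.061 and -0.021, so not every library correlated best with its own number. With a replicate block 4016 and 3755 genes and 27 and 551 subfamilies were called.

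Scaling mattered most. Without factors, a setting added after the data were seen, 6190 and 2347 genes and 57 and 241 subfamilies were called in wild type. In the mutant contrast this gave 2437 genes higher in CD11b cells and 68 and 255 subfamilies. Factors from TE counts gave 125 and 152 subfamilies in wild type and 135 and 137 in the mutant. Mki67 changed sign with upper-quartile factors (0.12) and without factors (0.58), and Igj with a replicate block (0.085), without factors (0.46), and in 3 of the fits that leave out a replicate, which ranged from -0.77 to 0.057. L1_Mus1 (0.68), RLTR4_MM-int (0.41), B3 (0.16), B1_Mur4 (0.066) and PB1D11 (0.062) changed sign with factors from TE counts, and L1_Mus1 (0.15) without factors. Without the 20 most abundant genes in the denominator the 12-library difference was -0.787 for LINE, -0.471 for L1, -0.0975 for ERVK, 0.434 for B2 and -2.85 for LTR counts (exact permutation p = 0.015, 0.13, 0.32, 0.05 and 0.005), and the other 10 sums kept their sign, at p = 0.005 each. ERVK without MMETn-int, added after the data were seen, gave -0.362 (exact permutation p = 0.005). Leaving out single libraries gave 0.543 to 0.638 for LINE, -0.643 to -0.353 for LTR and -0.573 to -0.395 for ERV1 counts. The smaller denominator changes the size by construction; the cause of the other changes was not tested. The depth of these libraries limits genes near the floor of 3 counts, whose fold changes in LK cells rest on few counts.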

Other observations

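Of the genes listed in a single cell set, 1373 were in the LK set only and 650 in the CD11b set only, and 13 and 20 TE subfamilies were likewise listed in 1 set. Asxl3, a paralog of Asxl1, was in the LK set only, with 4 counts over the wild-type LK libraries, and Ptn, a growth factor of stromal cells, with 66. Of the gene lists, Mcpt4, Hbb-bt, Ahsp, Ighm, Iglc1, Igkc, Trbc1, Trbc2, Trac, Klk1, Atf7ip2, Kdm4d, Syne3 and Nr4a3 were not analysed here.

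Genes called higher in LK cells had shorter transcripts on the whole. The median length of merged exons, from the GENCODE annotation of the same build, was 2843 bases for them, 3487 bases for genes called higher in CD11b cells and 3189 bases for the 13315 tested genes with a length. Across genes, which are not independent replicates, the rank correlation of length with the log2 fold change was -0.11 in the wild-type and -0.20 in the mutant libraries. Any part of length or of RNA quality in the comparison was not tested.

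ERVL and MaLR repeats, both LTR families, had fewer counts in LK cells. ERVL came to 0.327 to 0.373 counts per 1000 gene counts in LK and to 0.519 to 0.623 in CD11b wild-type libraries, and MaLR to 1.62 to 1.66 and to 2.26 to 2.42. Over 12 libraries they differed by -0.211 and -0.564, each with exact permutation p = 0.005, which is the smallest that the design gives. ERV1 counts differed by -0.514 (exact permutation p = 0.03, adjusted p = 0.0346), with p = 0.05 without CD11b replicate 1 and p = 0.055 without LK replicate 1. In wild type alone the ERV1 difference was -0.229 (exact permutation p = 0.6). There LK libraries came to 3.52 to 4.23 per 1000 gene counts and CD11b libraries to 4.08 to 4.49, which overlap.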
